A study of Homo sapiens with 12 samples.

Results

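The stratified epithelium keratins described here are 10 genes, *KRT4*, *KRT5*, *KRT6A*, *KRT13*, *KRT14*, *KRT15*, *KRT16*, *KRT17*, *KRT19* and *KRT75*. They were taken by gene name and joined by Ensembl identifier in the count tables, 10 of 30984 genes listed for KYSE30 and 10 of 78691 listed for U138MG. The set was chosen by fold change, with the strong PTDSS1i against DMSO differences of *KRT75*, *KRT13* and *KRT4* in U138MG in view. Values of the members in the U138MG libraries are therefore given as a description, with no test, and the members were tested in KYSE30 only.

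RNA-seq of poly-A RNA covered the ESCC (esophageal squamous cell carcinoma) line KYSE30 and cells labelled U138MG, a glioblastoma (GBM) line. Cultures were exposed for 48 h to 100 nM PTDSS1i, the small-molecule inhibitor DS55980254 of phosphatidylserine synthase 1, or to the vehicle DMSO. There were 4 groups of 3 cultures, KYSE30 DMSO, KYSE30 PTDSS1i, U138MG DMSO and U138MG PTDSS1i, and all 12 carry a wild-type genotype. KYSE30 libraries are labelled as one batch and U138MG libraries as another, so line and batch cannot be told apart. Total counts per library lay between 18800932 and 26514658.

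Keratins are the intermediate filament proteins of epithelial cells, and each filament pairs an acidic type I with a basic type II chain. In a stratified epithelium *KRT5* and *KRT14* mark the basal layer. Above it, *KRT4* and *KRT13* take over in the esophagus and other wet mucosae, whereas *KRT6A*, *KRT16* and *KRT17* are known for their rise in wounded and hyperproliferative epithelium. Glial cells build their intermediate filaments from vimentin and GFAP instead.

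The libraries labelled U138MG were checked against markers of the labelled and of other cell types, in CPM (the usual scaling of counts to library size). All 10 squamous epithelial markers reached a mean of 5 CPM in DMSO, with a sum of 2504 to 2563 CPM in DMSO and 1833 to 1912 CPM in PTDSS1i libraries. Of 11 glial markers, 1 reached 5 CPM in DMSO (*ALDH1L1*), 4 had no counts in any library, *OLIG2* among them, and their sum was 29.6 to 31.2 CPM in DMSO and 20.2 to 23.3 CPM in PTDSS1i. *GFAP* was at 2.36 ± 0.183 CPM in DMSO (SD, n = 3). Of 12 mesenchymal markers, 4 reached 5 CPM in DMSO, 1 had no counts, and their sum was 844.1 to 875.8 CPM in DMSO and 452.2 to 466.2 CPM in PTDSS1i. *SPARC* made up most of it at 712.5 ± 13.1 CPM in DMSO, while *VIM*, the intermediate filament gene of mesenchymal and glial cells, was at 0.206 ± 0.0662 CPM.

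In KYSE30, 8 of the 10 squamous markers reached 5 CPM in DMSO, with a sum of 1222 to 1345 CPM in DMSO and 1758 to 1824 CPM in PTDSS1i. The glial sum was 6.03 to 10.3 CPM in DMSO and 7.43 to 8.99 CPM in PTDSS1i, and the mesenchymal sum 110.8 to 161.9 CPM and 97.4 to 100.7 CPM, so both sums were lower than in the U138MG libraries. Of the mesenchymal markers of KYSE30, 8 were tested, and 2 were called higher and 3 lower after PTDSS1i, where 13.4% of all genes were called. *VIM* and *ZEB1* were higher (log2 fold changes 2.72 and 1.53), and *FN1*, *COL3A1* and *SPARC* were lower (-1.28, -1.55 and -1.24). *ZEB1* had few counts, 2, 4 and 11 in DMSO and 12, 12 and 27 in PTDSS1i. High squamous markers and near-absent *VIM* in the U138MG libraries go against their label. The part of these marker differences in the keratin results was not tested. The name "U138MG libraries" below is the label only, and every result drawn from them holds for whatever cells those libraries came from.

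The members lie in both keratin gene clusters of the human genome, all on the minus strand (GENCODE 29 on GRCh38). The type II genes were on chromosome 12, *KRT75* at 52424070 to 52434525, *KRT6A* at 52487174 to 52493257, *KRT5* at 52514575 to 52520687 and *KRT4* at 52806549 to 52814551. The type I genes were on chromosome 17, *KRT13* at 41500981 to 41505705, *KRT15* at 41513743 to 41522529, *KRT19* at 41523617 to 41528308, *KRT14* at 41582279 to 41586921, *KRT16* at 41609778 to 41615899 and *KRT17* at 41619441 to 41624842. Reads from near-identical copies can be split between genes: of the 50-base windows of the principal transcript, 39.1% were shared with other genes for *KRT6A* (foremost *KRT6C* and *KRT6B*), 23.8% for *KRT14*, 22.0% for *KRT16* and 16% for *KRT17*. The counts of these 4 genes are uncertain where reads fall in such windows. The share was 3.99% for *KRT5*, 1.79% for *KRT19* and 0.328% for *KRT15*, and *KRT4* shared no window. For *KRT13* and *KRT75* the shared windows, 18.4% and 7.82%, lay almost all in the opposite-strand genes *AC019349.1* and *AC055736.1* that overlap their exons, and outside these the shares were 1.03% and 0.044%.

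Of the 10 members, 3 had a promoter in the RefSeq table used (GRCh38.p14), the type II genes *KRT75*, *KRT4* and *KRT5*. They are printed for that reason alone and not for how they changed. The 250 bases before each RefSeq start are printed 5′ to 3′ on the gene's strand, at chr12:52434372-52434621 for *KRT75*, chr12:52814117-52814366 for *KRT4* and chr12:52520395-52520644 for *KRT5*. These starts differ from the GENCODE gene ends above, so that the *KRT4* and *KRT5* stretches lie inside the GENCODE gene spans and the *KRT75* stretch partly so. Capitals mark matches to the AP-2 motif GCCNNNGGC or the KLF/SP motif CCNCNCCC on either strand.
KRT75: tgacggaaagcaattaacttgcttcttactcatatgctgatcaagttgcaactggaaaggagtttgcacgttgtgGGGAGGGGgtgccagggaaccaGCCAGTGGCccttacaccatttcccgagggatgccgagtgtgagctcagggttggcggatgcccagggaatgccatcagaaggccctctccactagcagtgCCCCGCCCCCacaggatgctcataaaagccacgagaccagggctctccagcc
KRT4: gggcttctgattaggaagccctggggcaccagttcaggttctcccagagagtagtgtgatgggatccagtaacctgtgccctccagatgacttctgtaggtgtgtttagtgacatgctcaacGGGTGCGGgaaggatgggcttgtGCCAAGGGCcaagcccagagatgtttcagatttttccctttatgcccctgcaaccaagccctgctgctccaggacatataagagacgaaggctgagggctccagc
KRT5: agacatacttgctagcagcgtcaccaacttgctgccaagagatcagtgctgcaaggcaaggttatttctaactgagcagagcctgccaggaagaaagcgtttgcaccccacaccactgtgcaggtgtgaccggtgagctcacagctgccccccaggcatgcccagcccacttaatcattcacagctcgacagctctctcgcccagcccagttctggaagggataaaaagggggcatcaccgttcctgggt
In *KRT75* the AP-2 letters began at position -153 from the start, and KLF/SP letters at -175 on the reverse strand and, overlapping each other, at -52 and -50. In *KRT4* AP-2 letters began at -105 and KLF/SP letters at -128 on the reverse strand. *KRT5* held neither. Among all 35116 promoter windows of 300 bases, 23.2% held the AP-2 letters and 56.2% the KLF/SP letters, so both are common. None of the 3 windows held the letters of AP-1 (TGACTCA, in 4.95% of all windows), ETS (CCGGAAG, 10.3%), the ATF4 core (TGATGCAA, 0.866%) or the exact TATA letters TATAAA (11.5%). Variants were not searched, and near the start the printed stretches hold cataaaag in *KRT75*, atataaga in *KRT4* and gataaaaa in *KRT5*. The missing exact letters therefore do not show that a TATA box is absent. A match is a description of the letters and not a binding site.

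**Figure D1:**
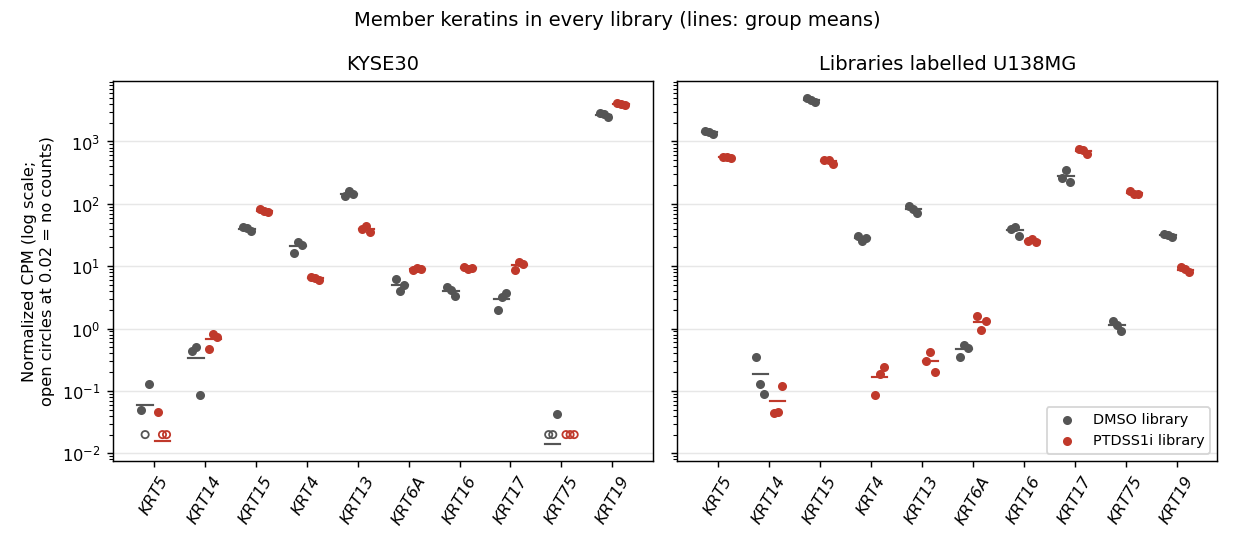
Level of each of the 10 keratins in each of the 12 libraries, as normalized CPM on a log axis, with KYSE30 on the left and the libraries labelled U138MG on the right. Points are libraries, short lines are group means and open circles are libraries with no counts. In the U138MG panel the PTDSS1i libraries sit far above DMSO for *KRT75* and far below it for *KRT13* and *KRT4*.

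In KYSE30, the mucosal suprabasal pair *KRT13* and *KRT4* fell and the stress keratins *KRT16* and *KRT17* rose after PTDSS1i treatment. Levels are given as normalized CPM, CPM scaled by edgeR's TMM factors, and a call required an adjusted p under 0.05 together with a log2 fold change beyond 1 in either direction. Of the 10 members, 8 passed the filter on low counts and 4 were called, 2 higher and 2 lower, where 13.4% of all genes tested in KYSE30 were called (6.40% higher and 7.04% lower). At the adjusted p alone 5 were higher and 2 lower, where 62.0% of all genes passed (30.1% higher and 32.0% lower). For 7 of the 8, no treated library reached into the range of the controls, as for 66.3% of all genes. The median log2 fold change was 0.90 over these 8 members and -0.03 over all genes tested. In bulk RNA, fewer cells of a type and less RNA per cell cannot be told apart, which touches every fold change below.

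Among the basal keratins of KYSE30, only *KRT15* had an appreciable level. *KRT5*, the type II chain of basal cells, had 1, 0 and 3 counts in the DMSO libraries and 1, 0 and 0 in the PTDSS1i libraries, so no fold change is given. Its type I partner *KRT14* had 9, 10 and 2 counts in DMSO and 10, 16 and 18 in PTDSS1i. The libraries overlapped, and its log2 fold change of 1.02 (standard error 0.44) did not pass the test (edgeR adjusted p = 0.0524), although it did under DESeq2 size factors. *KRT15*, a type I keratin of basal and progenitor cells, was at 42.0, 40.6 and 37.0 normalized CPM in DMSO and at 82.1, 76.7 and 74.4 in PTDSS1i. All 3 treated libraries lay above all 3 controls, and *KRT15* rose from a mean of 39.9 ± 2.59 to one of 77.7 ± 3.97 (SD over 3 libraries), and its log2 fold change was 0.96 (standard error 0.06, edgeR adjusted p = 1.38e-11), just short of the fold threshold.

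*KRT13*, the type I keratin of the esophageal suprabasal layers, was at 132.1, 161.8 and 143.7 normalized CPM in the KYSE30 DMSO libraries and at 39.8, 43.7 and 35.9 in the PTDSS1i libraries. The groups were far apart, and *KRT13* fell 3.67-fold from 145.8 ± 14.96 to 39.8 ± 3.93 (log2 fold change -1.88, standard error 0.08, edgeR adjusted p = 5.7e-11). *KRT4*, its type II partner, was at 16.1, 24.6 and 21.8 normalized CPM in DMSO and at 6.67, 6.53 and 5.99 in PTDSS1i. The lowest DMSO library still lay well above the highest PTDSS1i library, and *KRT4* fell 3.26-fold from 20.8 ± 4.34 to 6.39 ± 0.359 (log2 fold change -1.71, standard error 0.14, edgeR adjusted p = 7.69e-08). Both members of the pair thus went the same way by a like size.

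The stress keratins of KYSE30 were low in DMSO and higher in every PTDSS1i library. *KRT17*, a type I keratin induced in injured epidermis, was at 2.00, 3.18 and 3.66 normalized CPM in DMSO and at 8.67, 11.9 and 10.7 in PTDSS1i, and rose 3.50-fold (log2 fold change 1.81, standard error 0.17, edgeR adjusted p = 8.25e-08). *KRT16*, the type I partner of the *KRT6* proteins, was at 4.64, 4.08 and 3.36 in DMSO and at 9.56, 9.13 and 9.25 in PTDSS1i (log2 fold change 1.22, standard error 0.13, edgeR adjusted p = 3.87e-08). The treated libraries of *KRT16* lay close together, with an SD of 0.222 normalized CPM. *KRT6A*, the type II stress keratin, was at 6.26, 3.98 and 4.93 in DMSO and at 8.81, 9.23 and 8.96 in PTDSS1i, a log2 fold change of 0.83 (standard error 0.14, edgeR adjusted p = 1.58e-05) that was under the fold threshold.

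The simple and transitional keratin *KRT19*, a short type I chain found in glands and in the basal layer of mucosae, was the most abundant member in KYSE30. It was at 2857, 2760 and 2460 normalized CPM in DMSO and at 4145, 3916 and 3905 in PTDSS1i. The groups did not overlap, and *KRT19* rose from 2692 ± 207.0 to 3989 ± 135.6, a log2 fold change of 0.57 (standard error 0.06, edgeR adjusted p = 6.1e-08) under the fold threshold. *KRT75*, the type II keratin of the hair follicle companion layer, had 1 count in 1 DMSO library and none in the other 5 libraries of KYSE30. It was therefore not detectable in KYSE30, where 3 counts in the smallest library are worth 0.160 CPM.

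Leaving out DMSO replicate 1 of KYSE30 raised the members called from 4 to 7, because *KRT15* and *KRT6A* then passed the fold threshold and *KRT14* the threshold on the adjusted p. Without a scaling beyond library size the median of all genes moved to -0.13 in KYSE30 and -0.17 in U138MG, and no member changed direction in either line under any scaling tried.

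The largest differences of any member were in the U138MG libraries, where *KRT75* was higher and *KRT13* and *KRT4* lower after PTDSS1i. Of the 10 members, 9 passed the filter on low counts, and 8 lay beyond the thresholds used for a call, 3 higher and 5 lower. In these libraries 19.8% of all genes tested were called (8.19% higher and 11.6% lower), and at the adjusted p alone 67.5% passed (33.9% higher and 33.6% lower), beside 3 members higher and 6 lower. The groups did not overlap for 9 of the 9 members and for 71.4% of all genes. Nothing is read from this count, since the same contrast chose the members. The median log2 fold change was -1.34 over the 9 members and -0.03 over all genes.

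Among the basal keratins of the U138MG libraries, *KRT15* and *KRT5* were abundant and *KRT14* nearly absent. *KRT15* was at 4917, 4705 and 4263 normalized CPM in DMSO and at 504.0, 508.7 and 433.3 in PTDSS1i. Every treated library lay far under every control, with means of 4629 ± 333.8 and 482.0 ± 42.3 (SD, n = 3), a 9.61-fold lower level and a log2 difference of -3.26 (standard error 0.09). *KRT5* was at 1476, 1415 and 1307 in DMSO and at 571.9, 554.5 and 537.1 in PTDSS1i, with means of 1399 ± 85.5 and 554.5 ± 17.4 and a log2 difference of -1.34 (standard error 0.04). *KRT14*, the usual partner of *KRT5*, had 7, 3 and 2 counts in DMSO and 1, 1 and 3 in PTDSS1i and did not pass the filter. The basal pair was thus unequal in these libraries, with its type II chain among the abundant keratins and its type I chain near the limit of detection.

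*KRT13* was at 91.6, 82.4 and 70.3 normalized CPM in the U138MG DMSO libraries and at 0.307, 0.414 and 0.200 in the PTDSS1i libraries. These are 1834, 1929 and 1585 counts against 7, 9 and 5. The mean went from 81.4 ± 10.7 to 0.307 ± 0.107, 264.5-fold lower, a log2 difference of -8.05 (standard error 0.20). *KRT4* had the same shape at a lower level, with 615, 597 and 648 counts in DMSO and 2, 4 and 6 in PTDSS1i. Its mean went from 28.3 ± 2.63 to 0.171 ± 0.0768 normalized CPM, 158.9-fold lower, a log2 difference of -7.31 (standard error 0.18). Folds of this size rest on single-digit counts in the treated libraries. *AC019349.1*, which lies on the opposite strand and overlaps exons of *KRT13*, had 17, 37 and 27 counts in DMSO and none in PTDSS1i. The library kit does not mark strand, so reads in the overlap cannot be assigned to one gene or the other.

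*KRT75* was at 1.35, 1.15 and 0.932 normalized CPM in the U138MG DMSO libraries and at 163.3, 143.8 and 143.1 in the PTDSS1i libraries, from 27, 27 and 21 counts to 3722, 3124 and 3584. The mean went from 1.14 ± 0.208 to 150.1 ± 11.5, 131.3-fold higher, a log2 difference of 7.04 (standard error 0.095). It was the sole member whose level passed from near the bottom of the set to among the abundant keratins. *AC055736.1*, the antisense gene that overlaps its exons, had no counts in DMSO and 1, 2 and 1 in PTDSS1i.

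Of the stress keratins in the U138MG libraries, *KRT17* and *KRT6A* were higher and *KRT16* lower after PTDSS1i. *KRT17* was at 259.9, 347.2 and 220.5 normalized CPM in DMSO and at 750.5, 734.5 and 640.8 in PTDSS1i, with means of 275.9 ± 64.8 and 708.6 ± 59.3 and a log2 difference of 1.36 (standard error 0.20). *KRT6A* was near the floor, with 7, 13 and 11 counts in DMSO and 36, 21 and 33 in PTDSS1i, a log2 difference of 1.45 (standard error 0.36). *KRT16* was at 39.0, 43.2 and 30.2 normalized CPM in DMSO and at 25.2, 27.3 and 24.5 in PTDSS1i. Its lowest DMSO library lay close to its highest PTDSS1i library, and the log2 difference was -0.55 (standard error 0.14). *KRT19* was at 32.9, 31.3 and 29.6 in DMSO and at 9.65, 8.98 and 7.95 in PTDSS1i, 3.53-fold lower, a log2 difference of -1.82 (standard error 0.09).

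**Figure D2:**
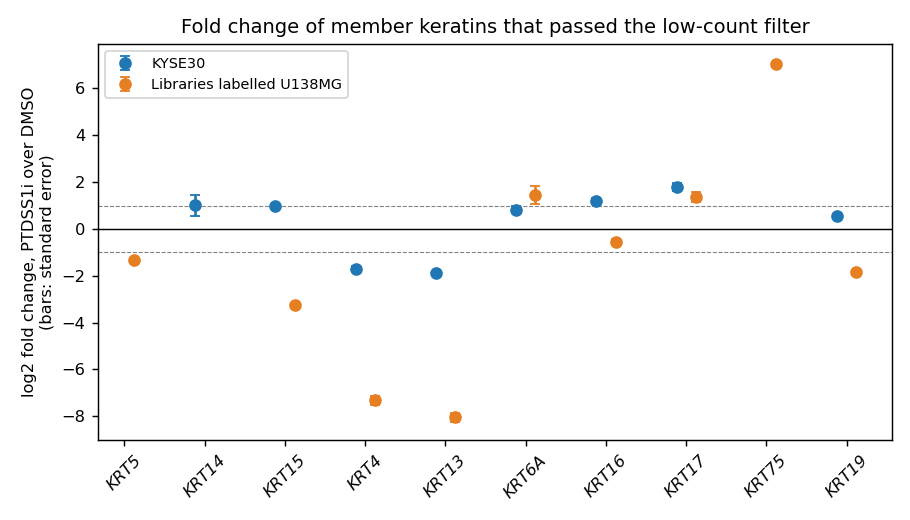
log2 fold change of PTDSS1i over DMSO for each keratin that passed the filter on low counts, in KYSE30 (blue) and in the libraries labelled U138MG (orange), with standard errors from the edgeR fit as bars and dashed lines at 1 and -1. *KRT13* and *KRT4* lie below 0 in both lines, at -1.88 and -1.71 in KYSE30 and at -8.05 and -7.31 in U138MG, and *KRT75* stands at 7.04 in U138MG alone because it was not tested in KYSE30.

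Set side by side, the lines had 7 members with a fold change in both beside *KRT5*, *KRT14* and *KRT75*. *KRT13* and *KRT4* were lower after PTDSS1i in both lines, and *KRT17* and *KRT6A* were higher in both. For *KRT6A* in U138MG this rests on few counts, and 39.1% of its windows are shared, foremost with *KRT6C* and *KRT6B*. *KRT6B* had 32, 35 and 28 counts in DMSO and 431, 407 and 440 in PTDSS1i there. Whether reads of *KRT6B* were counted as *KRT6A* was not tested. *KRT15* was at 0.96 in KYSE30 and -3.26 in U138MG, *KRT19* at 0.57 and -1.82, and *KRT16* at 1.22 and -0.55, all as log2 fold changes. Differences between the lines were not tested, because U138MG values chose the members.

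Levels per kilobase of exon are the scale on which different genes can be set against each other. On it the most abundant of the 10 members differed between the lines and, in U138MG, between treatments. In KYSE30 DMSO *KRT19* stood first at 1153 ± 88.6 normalized CPM per kb and held 94.5% of the summed level of the 10 members. *KRT13* came next at 50.1 per kb with 4.12%. *KRT4* at 6.29 and *KRT15* at 5.64 overlapped between libraries, as did *KRT6A* at 1.73 and *KRT16* at 1.63. *KRT17* followed at 0.941 per kb and *KRT14* at 0.150, with *KRT5* and *KRT75* last.

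In KYSE30 PTDSS1i *KRT19* still stood first at 1707 ± 58.0 per kb, with 97.9% of the sum. *KRT13* at 13.7 per kb and *KRT15* at 11.0 came next and did not overlap, and *KRT16* at 3.76, *KRT17* at 3.33 and *KRT6A* at 3.07 each overlapped their neighbour. *KRT4*, next after *KRT13* in the DMSO libraries, now lay below *KRT15*, *KRT16*, *KRT17* and *KRT6A* at 1.93 per kb. The summed normalized CPM of the members was 2912 ± 207.3 in DMSO and 4142 ± 138.2 in PTDSS1i, a sum that is almost all *KRT19*.

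In U138MG DMSO *KRT15* stood first at 654.7 ± 47.2 normalized CPM per kb with 57.7% of the sum, then *KRT5* at 326.0 ± 19.9 with 28.8% and *KRT17* at 88.1 with 7.73%. *KRT13* followed at 28.0 per kb. *KRT16* at 15.2 and *KRT19* at 13.4 overlapped, *KRT4* was at 8.55, *KRT75* at 0.492 and *KRT6A* at 0.159 per kb, the last overlapping *KRT14*. In U138MG PTDSS1i *KRT17* stood first at 226.4 ± 18.9 per kb with 45% and *KRT5* came next at 129.2 ± 4.05 with 25.7%. Outside the members, *KRT18* was at 277.5 and *KRT7* at 228.9 per kb in the same libraries, so this rank holds among the members only. *KRT15* at 68.2 ± 5.98 with 13.5% and *KRT75* at 64.6 ± 4.93 with 12.8% overlapped. Below them were *KRT16* at 10.4, *KRT19* at 3.79 and *KRT6A* at 0.440 per kb, and *KRT13*, *KRT4* and *KRT14* closed the order with overlapping libraries.

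*KRT15* has an exon union of 7069 bases, longer than that of any other member, and its place on the per-kb scale moves with the length used. With the principal transcript its share in U138MG DMSO was 51.7%, and it no longer overlapped *KRT75* in PTDSS1i. The summed normalized CPM of the members was 6484 ± 471.8 in U138MG DMSO and 1932 ± 125.9 in PTDSS1i, and the log2 ratio of -1.75 became -0.36 when *KRT15* was left out. Type II chains held 29.6 ± 0.751% of the per-kb sum in DMSO and 38.6 ± 1.41% in PTDSS1i (SD, n = 3). In KYSE30 they held 0.663 ± 0.104% and 0.287 ± 0.0107%, so within this set nearly all of the level there came from type I chains.

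**Figure D3:**
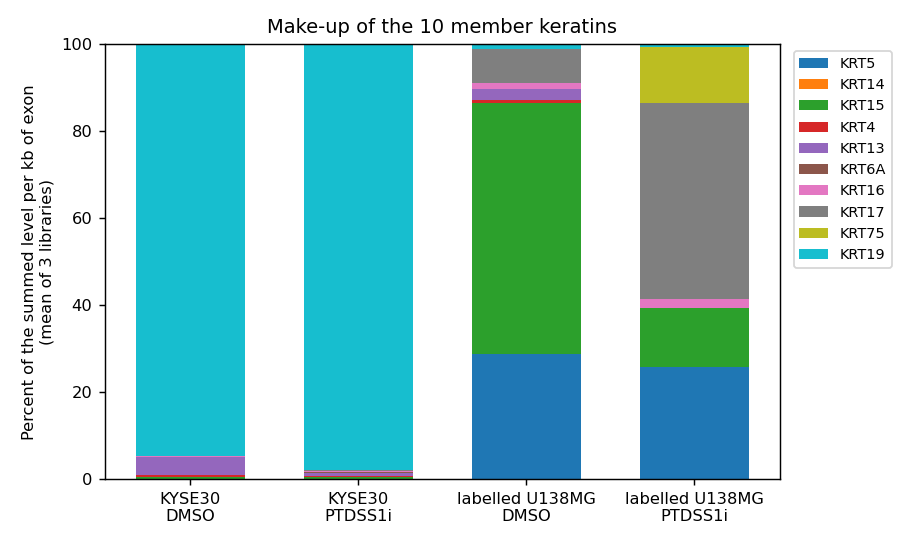
Make-up of the 10 keratins in each group as the percent of their summed normalized CPM per kb of exon, stacked from 0 to 100, mean of 3 libraries. *KRT19* fills 94.5% and 97.9% of the KYSE30 bars, and in U138MG the largest part passes from *KRT15* at 57.7% in DMSO to *KRT17* at 45% in PTDSS1i.

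The other keratins, 44 genes on hand-written lists of further stratified, cornified, simple, inner root sheath and hair keratins, gave no calls in KYSE30 and several in the U138MG libraries. In KYSE30, 33 were listed and 9 passed the filter. Of these edgeR called 0, where 13.4% of all genes tested were called. At an unadjusted p under 0.05 there were 5 of the 9, and DESeq2 called 0 as well. At the adjusted p alone there were also 5, where 62.0% of all genes passed. The median log2 fold change was 0.35. *KRT8* and *KRT18*, the simple epithelial pair, were at 4458 and 2353 normalized CPM in DMSO and 6012 and 3233 in PTDSS1i, log2 fold changes of 0.43 and 0.46 that passed the adjusted p but not the fold threshold. *KRT80* was at 390.6 and 435.0, *KRT7* at 67.6 and 61.5 and *KRT23* at 37.0 and 53.3 normalized CPM.

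In the U138MG libraries all 44 were listed and 15 passed the filter. Of these 6 were called higher and 3 lower, where 19.8% of all genes tested were called (8.19% higher and 11.6% lower). The median log2 fold change was 0.63. With at least 10 counts in every library only *KRT6B*, *KRT80* and *KRT23* stayed called, since genes low in a single group then drop out. *KRT6B*, a near copy of *KRT6A*, rose from 1.45 to 18.4 normalized CPM (log2 fold change 3.67, standard error 0.13, edgeR adjusted p = 7.96e-20), while *KRT6C* had at most 3 counts in any of these libraries. *KRT80* rose from 6.13 to 56.1 and *KRT23* from 7.03 to 93.6 normalized CPM, and *KRT33B* and *KRT20* rose with log2 fold changes of 3.14 and 3.35. The hair keratin *KRT34* had at most 1 count per DMSO library and was at least 35.7-fold higher in PTDSS1i, against a floor of 3 counts per library. *KRT9* and *KRT1*, keratins of cornified skin, were at least 49.2-fold and at least 6.79-fold lower, and the inner root sheath keratin *KRT74* fell by 4.04 on the log2 scale. Among the more abundant ones that were not called, *KRT7* was at 604.5 and 936.7, *KRT8* at 1754 and 1079, *KRT18* at 646.1 and 892.9 and *KRT10* at 39.1 and 59.2 normalized CPM in DMSO and PTDSS1i.

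Keratin filaments are held at desmosomes and hemidesmosomes, and 20 genes of these anchors were listed. In KYSE30, 16 were tested, with 1 called higher and 1 lower, where 13.4% of all genes were called. The median log2 fold change was 0.38. *ITGB4*, the hemidesmosomal integrin chain, rose from 1571 ± 94.6 to 3355 ± 90.9 normalized CPM (log2 fold change 1.10, edgeR adjusted p = 5.36e-13), a call that was lost without scaling beyond library size. *DSC3*, a desmosomal cadherin of lower epithelial layers, fell by 1.31 on the log2 scale (edgeR adjusted p = 7.11e-11). In U138MG, 17 were tested, none was called higher and 3 were called lower, where 19.8% of all genes were called (11.6% lower). The median was -0.05. *DSC3* fell by 1.76, *PKP1*, a desmosomal plaque protein, fell by 1.62, and *DSP*, the desmoplakin that binds keratin to the plaque, fell by 1.02 on the log2 scale (edgeR adjusted p = 4.89e-25, 3.35e-09 and 1.98e-20). *DSP* lay just past the fold threshold, and its call was lost without U138MG DMSO replicate 2, without PTDSS1i replicate 3 and with no filter on low counts.

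Of 23 transcription factors known to act on keratin genes, 4 were called in KYSE30, all higher, among 21 tested (13.4% of all genes), and 8 in U138MG, 4 higher and 4 lower, among 23 tested (19.8% of all genes). At the adjusted p alone 12 were higher and 5 lower in KYSE30, where 62.0% of all genes passed. In U138MG 11 were higher and 12 lower at the adjusted p alone, where 67.5% of all genes passed. In KYSE30 *JUND*, *FOS* and *KLF4* rose most, with log2 fold changes of 1.75, 1.40 and 1.38 (edgeR adjusted p = 8.83e-17, 4.39e-12 and 1.98e-15). In U138MG the AP-1 gene *FOSL1* rose from 1.34 ± 0.419 to 81.0 ± 3.00 normalized CPM (log2 fold change 5.92, edgeR adjusted p = 1.3e-26), and *JUN* and *JUND* rose by 3.76 and 1.65. *FOXN1*, *SOX2* and *ZNF750* fell, with log2 fold changes of -4.04, -3.03 and -2.77. With at least 10 counts in every library *FOXN1* was no longer called, while *SOX2* and *ZNF750* were. *TP63*, the regulator of the basal keratinocyte programme, had log2 fold changes of -0.42 in KYSE30 and -0.36 in U138MG. The median was 0.37 over the tested factors in KYSE30 and -0.25 in U138MG, beside -0.03 over all genes in each.

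**Figure D4:**
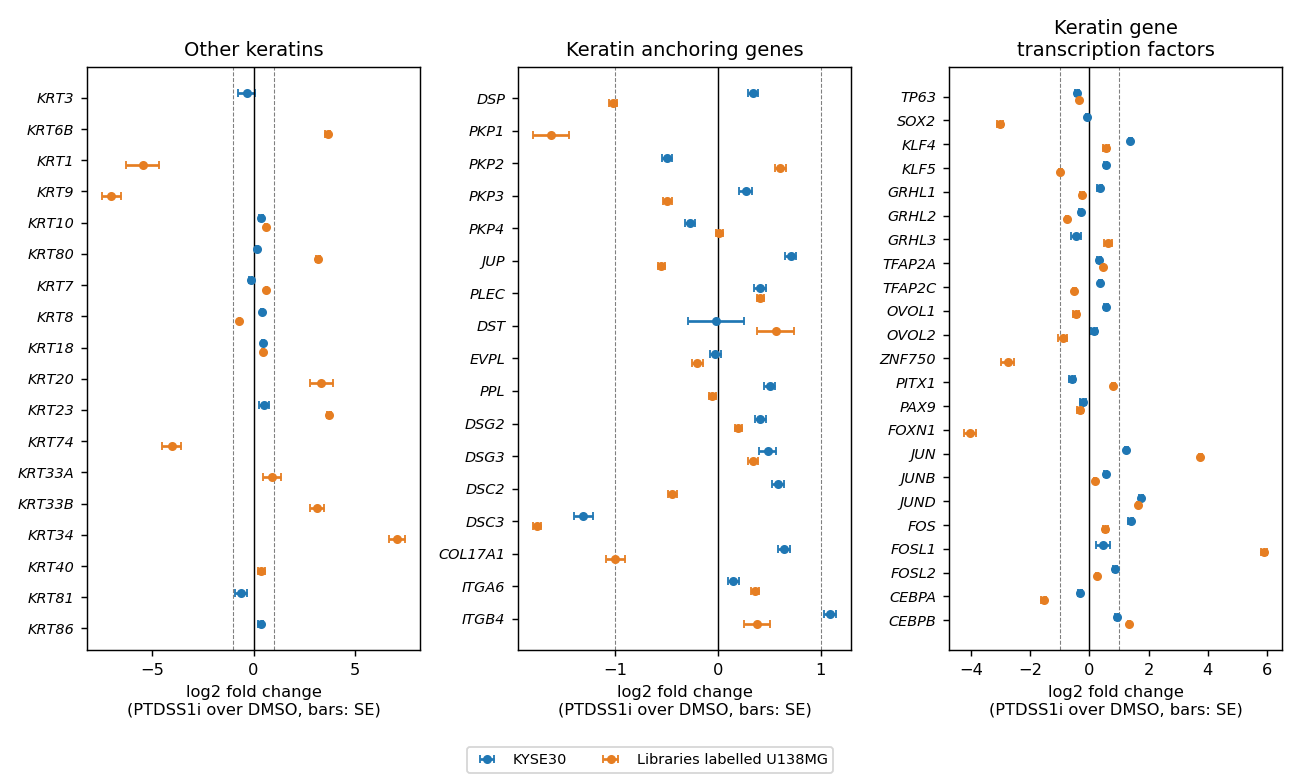
log2 fold change of PTDSS1i over DMSO, with standard errors as bars, for the other keratins, the keratin anchoring genes and the transcription factors that passed the filter on low counts, in KYSE30 (blue) and the libraries labelled U138MG (orange). Dashed lines are at 1 and -1. *KRT34*, *KRT9* and *KRT1* had a group at or under 3 counts in every library, so their plotted values depend on the prior count and only their bounds are read.

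The genes whose pattern lay closest to the 3 leading members were found by the root-mean-square difference of centred log2 normalized CPM over the 12 libraries, among 12619 named genes other than the members. For *KRT75* these were *CCL20* at 0.70, *IL1B* at 0.82 and *TREM1* at 0.98. *CCL20* was at 2.92 in U138MG DMSO and 154.7 in U138MG PTDSS1i, and at 0.0988 and 0.105 normalized CPM in KYSE30. For *KRT4* they were *GABRP* at 0.81, *CRISP3* at 1.06 and *LINC02593* at 1.30, while the member *KRT13* lay at 0.94 from it. For *KRT13* the nearest were *GABRP* at 1.35, *SOSTDC1* at 1.49 and *EFEMP1* at 1.54. *GABRP* was at 11.5 and 4.69 normalized CPM in KYSE30 DMSO and PTDSS1i and at 7.85 and 0.216 in U138MG. The 12 libraries share 2 lines and 2 treatments, so this likeness rests on 4 group means.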

How the data were processed

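RNA-seq was measured in 12 libraries, and the deposited values are raw counts per gene, whole numbers without normalization, in 1 table a line. The submitters' processing notes name Trimmomatic, STAR, featureCounts and hg38, with no versions. The annotation release, the read length and the use of strand are not given in the sources used here, and the kit, TruSeq RNA v2, does not mark strand. Growth medium is the same in the labels of both lines, which differs from the methods of the study.

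Within each line genes were kept by edgeR's filterByExpr (minimum count 10, minimum total 15), scaled by TMM and fitted by the robust quasi-likelihood test, two-sided, with Benjamini-Hochberg adjustment over all genes tested. Calls needed an adjusted p under 0.05 and an absolute log2 fold change over 1. R 4.3.3, edgeR 4.0.16, limma 3.58.1, DESeq2 1.42.0, Python 3.11.15, pandas 2.3.3 and matplotlib 3.10.9 were used, and the fit was tested on simulated data. With 3 libraries a group, the smallest p of an exact permutation test on 1 gene, two-sided, is 0.1. All pairs of replicates differed beyond sampling noise (chi-square per degree of freedom 2.29 or more) and were kept as separate samples. Depths of 18800932 to 26514658 counts set the precision, and 3 counts per library were taken as the floor, which covers counting error only. The study's methods speak of independent experiments in general without naming RNA-seq, and the labels do not say how the cultures were separated, so p-values measure the spread between these samples.

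The members and gene lists were chosen with earlier results of these data known. All members were named. Other keratins were named where called or at 50 normalized CPM or more, anchoring genes and transcription factors as the 3 with the largest change per direction among those called with at least 5 normalized CPM, and likeness as the 3 nearest genes. *TP63* and *KRT6C* were named outside this rule, after their values were seen. Exon lengths and overlaps came from GENCODE 29, which may differ from the annotation behind the counts, and promoters from RefSeq. Alternatives were other scalings, other filters, DESeq2, no fold threshold, a replicate block, each library left out, and other lengths; the principal transcript as a length was added after seeing the data.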

Additional observations from a re-analysis of the deposited data

Results flagged for a closer look

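*KRT15*, *KRT16* and *KRT19* moved in opposite directions in the lines. For each of them every PTDSS1i library lay above every DMSO library in KYSE30 and below every one in the libraries labelled U138MG. Groups did not overlap, in either direction, for 66.3% of all genes tested in KYSE30 and for 71.4% in U138MG. The share of all genes that moved in opposite directions in the lines was not computed. The log2 fold changes were 0.96 in KYSE30 and -3.26 in U138MG for *KRT15*, 1.22 and -0.55 for *KRT16*, and 0.57 and -1.82 for *KRT19*. The difference was not tested, because the U138MG contrast chose the members. Line and labelled batch cannot be told apart.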

How the results depend on the processing

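No member changed direction under any alternative. Single members were judged in KYSE30 only by whether their call changed, and in U138MG only by whether they stayed within the replicate spread. By these rules 209 values stayed, 6 passed the thresholds newly in KYSE30 and 2 moved in U138MG. A KYSE30 value that stayed could still differ in size. Over counts, sums and shares 117 stayed and 23 moved. With no fold threshold, KYSE30 calls were 7 members, 5 other keratins, 14 anchoring genes and 17 transcription factors, where 62.0% of all genes passed. U138MG calls were then 14 other keratins, 13 anchoring genes and 23 transcription factors, where 67.5% of all genes passed. With no filter on low counts, 3 other keratins were called in KYSE30. With at least 10 counts in every library, 3 other keratins were called in U138MG, and 5 members lay beyond the thresholds there, since genes low in a single group then drop out; member counts in U138MG describe the contrast that chose them and support nothing. With no scaling beyond library size, 1 anchoring gene was called in KYSE30. That setting gave a log2 ratio of the summed members in U138MG of -1.89, as did upper-quartile normalization, against -1.75 under TMM, and leaving out *KRT15* gave -0.36. Without scaling, 38.09% of all calls in KYSE30 and 31.62% in U138MG were higher, against 47.62% and 41.39% under TMM, and upper-quartile normalization gave 31.68% in U138MG. The share of *KRT19* in KYSE30 PTDSS1i was 98.1% by the longest and 98.0% by the principal transcript, that of *KRT15* in U138MG DMSO 52.4% and 51.7%, and that of *KRT17* in U138MG PTDSS1i 49.2% and 51.8%. Leaving out single libraries gave 4 to 7 members (7 without KYSE30 DMSO replicate 1), 0 to 1 other keratins (1 without KYSE30 DMSO replicate 3 or PTDSS1i replicate 2), 2 to 3 anchoring genes and 4 to 4 transcription factors in KYSE30, and 9 to 11 other keratins, 2 to 4 anchoring genes and 8 to 9 transcription factors in U138MG, where 8 to 8 members lay beyond the thresholds. The summed ratios then ranged from 0.45 to 0.55 in KYSE30 and from -1.80 to -1.69 in U138MG. To look for pairing, the group mean of each gene was subtracted from its log2 normalized CPM. The remainders of each DMSO library were then correlated with those of each PTDSS1i library. Remainders of same-numbered libraries correlated at 0.02 to 0.075 in KYSE30 and -0.003 to 0.048 in U138MG. Those of libraries of other numbers correlated at -0.076 to 0.006 in KYSE30 and -0.064 to 0.056 in U138MG. The same-numbered values thus all lay above the others in KYSE30 but not in U138MG, and all were small. A shared origin of same-numbered libraries was not tested. A replicate block gave 4 called members in KYSE30 and 8 beyond the thresholds in U138MG, as without it, and changed no other count.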
